A study of Homo sapiens and Mus musculus with 99 samples.

Results

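A set of 6 genes chosen as neutrophil and myeloid transcripts was followed through the mouse libraries of the series, made from isolated lung epithelial cells. They were picked by gene ID, with the version number cut off, and are 6 of 55401 rows in each mouse count table. Their names came with the selection, not from the tables. By role they are S100a8 (ENSMUSG00000056054) and S100a9 (ENSMUSG00000056071), Csf3r (ENSMUSG00000028859), Cd14 (ENSMUSG00000051439), Lyz2 (ENSMUSG00000069516), and the row ENSMUSG00000052435. The last was listed as Retnlg, but it lies on chromosome 14, and Retnlg, which encodes a resistin-like protein of neutrophils, lies on another chromosome. It is therefore given by its ID alone, and no value for Retnlg is reported.

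S100a8 and S100a9 encode the paired calcium-binding proteins of calprotectin, which fill the cytosol of neutrophils and are also found in monocytes and in inflamed epithelium. Csf3r encodes the receptor for granulocyte colony-stimulating factor, which drives the making and survival of neutrophils. Cd14 encodes the co-receptor that hands bacterial lipopolysaccharide to Toll-like receptor 4, best known on monocytes and macrophages and inducible in other cells. Lyz2 encodes lysozyme M of macrophages and neutrophils, and alveolar type 2 cells of the mouse lung express it too, so it does not mark leukocytes alone in this tissue.

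In the mm10 build, S100a8 lies on chromosome 3 from 90668978 to 90670035 and S100a9 on the same chromosome from 90692632 to 90695721, on the opposite strand, with 22596 bases between them. Csf3r lies on chromosome 4 from 126024550 to 126044440, Cd14 on chromosome 18 from 36725067 to 36726798 and Lyz2 on chromosome 10 from 117277331 to 117282321. ENSMUSG00000052435 lies on chromosome 14 from 54710360 to 54712174. These are spans of whole gene models, exons and introns together, and 0 of the 6 overlaps another gene model of the table.

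The 48 mouse libraries fell into 23 groups of 7 experiments, with 3 libraries a group in Lung1 and 2 in the other 6. All cells were taken 6 h after intranasal dosing, and each experiment had its own mock group given DPBS, a buffered saline. Lung1 added ALT, an extract of the mould Alternaria alternata. Lung2 added the proteins Aeg-S and Aeg-L, each alone and both together (Aeg-S/L). Lung3 added extracts labelled WT ALT, aegs KO ALT and aegl KO ALT. Lung4 and IL33KO2 each added Lysenin, an earthworm toxin, and the further pore-forming proteins PlyA2EryB and LSL. IL33KO1 added ALT and Aeg-S/L, and Rag2gc added Aeg-S/L. Mice of Lung4 are labelled WT, those of IL33KO1 and IL33KO2 IL-33 KO, and those of Rag2gc Rag2-/-; gc-/-. No genotype is given for Lung1, Lung2 or Lung3. Each knockout experiment held knockout mice only, its controls included, so an effect of genotype and one of the experiment cannot be told apart. The labels used here give no dose, age or strain.

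Library totals ran from 29.6 M to 66.3 M counts. The series text speaks of biological replicates without saying whether each was 1 animal, so p-values measure the spread between these libraries. Levels are in CPM, the usual normalised read count, with library totals scaled by TMM. Changes are on the log2 scale ± SE, with edgeR's quasi-likelihood test and Benjamini-Hochberg adjustment over all genes tested in a comparison, and a gene is said to have risen or fallen at an adjusted p under 0.05. In bulk cells, fewer cells of a type and less RNA per cell cannot be told apart. Markers of leukocytes, epithelium and other lung cells were not matched to mouse IDs, so the make-up of the preparations was not tested. The 2 libraries of a group stood far apart in some members in several groups, as the values below show. DPBS 2 of Lung3 was above DPBS 1 for each of the 5 tested genes, DPBS 1 of IL33KO1 held 5.83% mitochondrial counts against 3.06% in DPBS 2, and Aeg-S 2 of Lung2 held less Csf3r and Cd14 than Aeg-S 1.

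S100a8, S100a9, Csf3r and Cd14 rose together, and Lyz2 fell, in most comparisons of a whole extract or a pore-forming protein with DPBS. There were 16 comparisons with DPBS, of which 12 were of this kind and 4 used a single Aeg protein or a knockout extract. In the 12, Cd14 rose in 12, S100a8 in 11, S100a9 in 11 and Csf3r in 10, whereas Lyz2 fell in 9. In the 4 others, 0 of the 5 tested genes passed in any comparison with edgeR. The count was also 0 in each of the 4 by unadjusted p under 0.05, and DESeq2 called 0 in each. Without the low-count filter edgeR called 1, Csf3r with Aeg-S (-0.90, adjusted p = 0.000323).

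**Figure D1:**
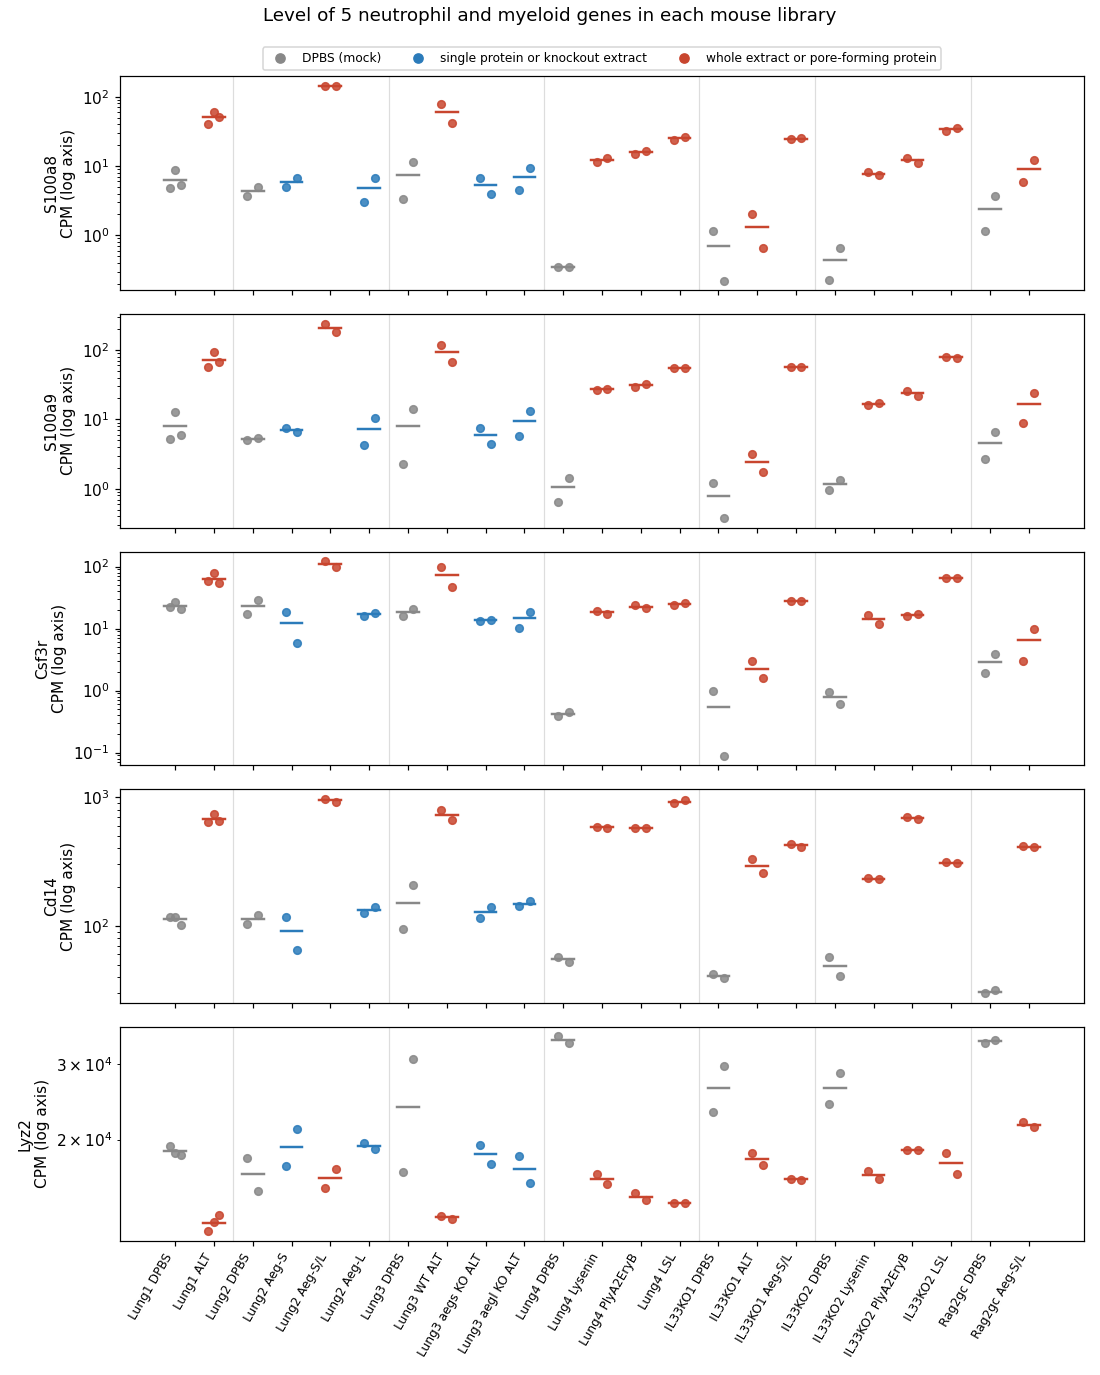
Level of the 5 tested genes in each mouse library, in CPM on log axes, with 1 point per library, a bar at the group mean and grey lines between experiments. S100a8, S100a9, Csf3r and Cd14 stood higher with extract or pore-forming proteins than in DPBS except for S100a8 in IL33KO1 ALT, where the points overlap, and Csf3r in Rag2gc. Lyz2 stood lower than in DPBS with these treatments except in Lung2 Aeg-S/L, where the points overlap.

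The number of members called has to be read against how many genes moved at all. In Lung1, ALT raised 4 members and lowered 1, and 28.5% of all 17801 genes tested rose and 30.1% fell. In Lung2, Aeg-S/L raised 4 members (19.1% of all 19053 genes) and lowered 0 (19.7%). With Aeg-S and Aeg-L alone, 0 members and 0% of genes were called in each. In Lung3, WT ALT raised 4 (15.5% of 19092 genes) and lowered 1 (18.8%). With each knockout extract 0 members and 0% of genes were called. In simulated data 28% of log2 changes of 1 were recovered in Lung2 and 29% in Lung3, so a count of 0 does not show that nothing changed.

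The 3 pore-forming proteins gave the same count of members in both experiments that used them. In Lung4, 4 rose and 1 fell with each, where 32% of 18752 genes rose and 31.6% fell with Lysenin, 32.8% and 31.9% with PlyA2EryB, and 33.1% and 32.7% with LSL. In IL33KO2 4 rose and 1 fell with each, where 20.7% of 18787 genes rose and 18.9% fell with Lysenin, 25.7% and 24.6% with PlyA2EryB, and 19.5% and 17.9% with LSL.

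In IL33KO1, ALT raised 1 member and lowered 0, where 2.4% of 18163 genes rose and 0.518% fell. Aeg-S/L there raised 4 (6.4%) and lowered 0 (4.53%). In Rag2gc, Aeg-S/L raised 3 (33.7% of 17989 genes) and lowered 1 (34.4%). Over all genes the median log2 change in these 16 comparisons lay between -0.05 and 0.02, and the median over the 5 tested members reached 6.07 in IL33KO2 with LSL.

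ENSMUSG00000052435 was close to absent. It had 0 counts in 22 of the 48 libraries, a median of 2 counts and 123 counts in all. Its highest library, aegl KO ALT 1 of Lung3, held 16 counts, or 0.446 CPM of the unscaled library. The 95% exact binomial interval was 0.255 to 0.725 CPM, covering counting error only and taking counts as independent. Most counts above 0 of this row were even, so counts may not be independent and the interval may be too narrow. A count of 0 allows up to 0.0452 to 0.101 CPM, depending on the library, taking 3 independent counts as the limit. It passed the low-count filter in 0 of 7 experiments and was tested in none of them, so the counts above are over 5 of the 6 members.

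Before any change is read, the mock groups differed. S100a8 in DPBS averaged from 0.347 CPM in Lung4 to 7.44 CPM in Lung3, a span of 21.4-fold over 7 group means. S100a9 spanned 10.2-fold, from 0.798 CPM in IL33KO1 to 8.14 CPM in Lung3. Csf3r spanned the most among these genes, 54.9-fold, from 0.421 CPM in Lung4 to 23.1 CPM in Lung1.

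For Csf3r the mock libraries formed separate ranges by experiment. It lay between 16.2 and 28.6 CPM in the 7 DPBS libraries of Lung1, Lung2 and Lung3. It lay at 1.9 and 3.86 CPM in Rag2gc, and between 0.0887 and 0.985 CPM in Lung4, IL33KO1 and IL33KO2. Lung4 is labelled WT and lay with the IL-33 KO experiments, so the low range was not limited to knockout mice. The lowest library, DPBS 2 of IL33KO1, rested on 4 counts (0.0228 to 0.215 CPM of the unscaled library by the exact binomial interval, taking counts as independent).

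Cd14 and Lyz2 varied less between mock groups. Cd14 averaged from 30.7 CPM in Rag2gc to 151 CPM in Lung3, 4.92-fold, and Lyz2 from 16641 CPM in Lung2 to 34251 CPM in Lung4, 2.06-fold. Lyz2 was lowest where Csf3r was high: its group means were 18779, 16641 and 23834 CPM in Lung1, Lung2 and Lung3, against 26436 to 34251 CPM in the other 4. No experiment shared its mock group with another, so these levels were not tested against each other.

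Per length of exon the genes differed widely in level. On the FPKM scale the mock group means were 12645 to 26027 for Lyz2, 17.7 to 87.2 for Cd14, 0.5 to 10.7 for S100a8, 1.53 to 15.6 for S100a9 and 0.117 to 6.41 for Csf3r. Lyz2 took 1.21% to 3.42% of all counts of a library, over all 48. Ordered by mean CPM over the 23 groups, 17 of 22 neighbouring groups overlapped for S100a8, 15 for S100a9, 18 for Csf3r, 13 for Cd14 and 17 for Lyz2. The ends of each order were far apart, and most single steps in it were within the spread between libraries.

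The calprotectin genes rose with the whole extract in Lung1. S100a8 stood at 4.87, 8.63 and 5.33 CPM in the 3 DPBS libraries and at 40.7, 59.2 and 51 CPM in the 3 ALT libraries. S100a9 stood at 5.18, 12.7 and 5.95 CPM in DPBS and at 56.5, 92.1 and 67.2 CPM with ALT. The groups did not overlap for either gene. S100a8 rose by 3.0 ± 0.20, an 8.01-fold change (edgeR adjusted p = 1.19e-07), and S100a9 by 3.18 ± 0.29 (edgeR adjusted p = 1.29e-06).

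The same genes rose with both Aeg proteins together in Lung2. S100a8 stood at 3.64 and 4.99 CPM in DPBS, at 4.93 and 6.77 CPM with Aeg-S, at 3.04 and 6.71 CPM with Aeg-L, and at 142 and 141 CPM with Aeg-S/L. For S100a8 only the Aeg-S/L libraries lay apart from DPBS. S100a9 with Aeg-S, at 7.4 and 6.49 CPM, also lay above DPBS but did not pass (0.40 ± 0.36, edgeR adjusted p = 0.751). With Aeg-L, at 4.28 and 10.3 CPM, S100a9 overlapped DPBS. S100a8 rose by 5.03 ± 0.38 with Aeg-S/L (edgeR adjusted p = 9.76e-05), the highest group mean of the 23, and S100a9 rose by 5.32 ± 0.40 (edgeR adjusted p = 9.7e-05) to 239 and 182 CPM from 5.1 and 5.41 CPM. With Aeg-S alone S100a8 changed by 0.44 ± 0.34 (edgeR adjusted p = 0.725), and with Aeg-L alone by 0.18 ± 0.35 (edgeR adjusted p = 1).

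Set directly against the single proteins, Aeg-S/L gave more of 4 members in each of the 2 comparisons. Against Aeg-S, 19.4% of all genes were higher and 19.9% lower, and against Aeg-L 18.9% and 19.7%. S100a8 was higher by 4.59 ± 0.37 than with Aeg-S (edgeR adjusted p = 0.000132) and by 4.86 ± 0.38 than with Aeg-L (edgeR adjusted p = 0.000121). Cd14 was higher by 3.36 ± 0.28 and 2.82 ± 0.27 in the same order, and Csf3r by 3.17 ± 0.50 and 2.69 ± 0.49. Lyz2 did not pass in either, at -0.25 ± 0.21 in both. Without Aeg-S 1 or Aeg-S 2 the Csf3r difference from Aeg-S was 4.25 or 2.55, and without Aeg-L 2 the differences from Aeg-L were 5.53 for S100a8 and 5.62 for S100a9.

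In Lung3 the rise appeared with the WT extract. S100a8 stood at 3.3 and 11.6 CPM in DPBS, at 78.7 and 41.9 CPM with WT ALT, at 6.76 and 3.95 CPM with aegs KO ALT, and at 4.57 and 9.36 CPM with aegl KO ALT. S100a9 stood at 2.29 and 14 CPM in DPBS, 118 and 67.9 CPM with WT ALT, 7.44 and 4.37 CPM with aegs KO ALT, and 5.76 and 13.4 CPM with aegl KO ALT. Both knockout extracts overlapped DPBS, and WT ALT did not. S100a8 rose by 3.02 ± 0.61 with WT ALT (edgeR adjusted p = 0.00583) and S100a9 by 3.51 ± 0.76 (edgeR adjusted p = 0.00794). The size rests on the mock libraries: S100a8 rose by 2.36 without DPBS 1 and 4.17 without DPBS 2, and S100a9 by 2.72 and 5.33.

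Against the WT extract itself, 4 members were lower and 0 higher with each knockout extract. Over all 19092 genes, 13.2% were lower and 15.7% higher with aegs KO ALT, and 12.7% and 15.2% with aegl KO ALT. S100a8 was at -3.49 ± 0.62 with aegs KO ALT (edgeR adjusted p = 0.00388) and -3.11 ± 0.61 with aegl KO ALT (edgeR adjusted p = 0.00639). S100a9 was at -3.98 ± 0.78 and -3.28 ± 0.75, Csf3r at -2.42 ± 0.39 and -2.32 ± 0.38, and Cd14 at -2.52 ± 0.34 and -2.29 ± 0.34. With 2 libraries a group the calprotectin calls were not firm. Without aegl KO ALT 1 the adjusted p was 0.0636 for S100a8 and 0.103 for S100a9, without WT ALT 1 it was 0.074 for S100a9 with aegl KO ALT, and without aegs KO ALT 2 it was 0.0628 for S100a9 with aegs KO ALT. Without WT ALT 1 the Csf3r differences were -1.76 with aegs KO ALT and -1.67 with aegl KO ALT, and without aegl KO ALT 2 those of S100a8 and S100a9 were -3.71 and -4.00.

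The pore-forming proteins raised S100a8 and S100a9 from very low mock levels in Lung4. S100a8 stood at 0.345 and 0.348 CPM in DPBS (17 and 16 counts), at 11.4 and 13.1 CPM with Lysenin, at 14.8 and 16.6 CPM with PlyA2EryB, and at 24.1 and 25.9 CPM with LSL. S100a9 stood at 0.649 and 1.44 CPM in DPBS, 26.8 and 27.5 CPM with Lysenin, 29.7 and 32.5 CPM with PlyA2EryB, and 54.5 and 55.8 CPM with LSL. All treated libraries lay above DPBS. S100a8 rose by 5.13 ± 0.17, 5.49 ± 0.16 and 6.16 ± 0.16 in that order (edgeR adjusted p = 6.31e-15, 1.34e-15 and 1.21e-16). S100a9 rose by 4.72 ± 0.14, 4.91 ± 0.14 and 5.74 ± 0.14, or by 5.37, 5.56 and 6.40 without DPBS 2. These fold changes exceed the one in Lung1, although the levels reached were lower than the 40.7 to 59.2 CPM of S100a8 there, and so was the mock level.

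In the IL-33 KO mice of IL33KO2 the order of the proteins was the same for S100a8 by group mean. It stood at 0.225 and 0.658 CPM in DPBS, at 8.08 and 7.5 CPM with Lysenin, at 13.2 and 11.2 CPM with PlyA2EryB, and at 31.8 and 35.6 CPM with LSL. It rose by 4.11 ± 0.31, 4.76 ± 0.30 and 6.22 ± 0.30 (edgeR adjusted p = 5.31e-05, 1.54e-05 and 7.61e-06), or by 5.11, 5.76 and 7.22 without DPBS 2. S100a9 rose by 3.84 ± 0.14, 4.35 ± 0.14 and 6.07 ± 0.14, to 77.9 ± 0.152 CPM (SD, n = 2) with LSL.

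IL33KO1 gave very different levels for its 2 treatments. S100a8 stood at 1.17 and 0.222 CPM in DPBS, at 2.01 and 0.653 CPM with ALT, and at 24.6 and 25 CPM with Aeg-S/L. The ALT libraries overlapped DPBS, and the Aeg-S/L libraries lay well above both. With ALT, S100a8 changed by 0.95 ± 0.77 (edgeR adjusted p = 0.493) and S100a9 by 1.64 ± 0.52 (edgeR adjusted p = 0.129). With Aeg-S/L, S100a8 rose by 5.18 ± 0.83 (edgeR adjusted p = 0.0214) and S100a9 by 6.17 ± 0.56 (edgeR adjusted p = 0.00493). Without DPBS 1 and without DPBS 2 these rises were 6.77 and 4.43 for S100a8, and 7.21 and 5.56 for S100a9. The ALT change of S100a9 passed without DPBS 1, the library high in mitochondrial counts, at 2.65 (edgeR adjusted p = 0.0311), and DESeq2 called it at 1.62 (adjusted p = 0.00915).

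A direct comparison of Aeg-S/L with ALT in IL33KO1 was added after the values had been seen. It raised 1 member, S100a9, by 4.54 ± 0.51 (edgeR adjusted p = 0.0404), where 0.165% of all genes were higher and 0.0551% lower. S100a8 differed by 4.22 ± 0.78 (edgeR adjusted p = 0.102) and Csf3r by 3.62 ± 0.78 (edgeR adjusted p = 0.123). DESeq2 called 3 members, with S100a8 at an adjusted p of 0.00187. The S100a9 call was lost without any 1 of the 4 libraries compared, at an adjusted p of 0.226 without ALT 1, 0.274 without ALT 2, 0.0961 without Aeg-S/L 1 and 0.0973 without Aeg-S/L 2.

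In Rag2gc mice the rise of the calprotectin genes was small and uneven. S100a8 stood at 1.14 and 3.68 CPM in DPBS and at 5.89 and 12.4 CPM with Aeg-S/L. S100a9 stood at 2.66 and 6.52 CPM in DPBS and at 8.9 and 24.2 CPM with Aeg-S/L. The groups did not overlap, but for both genes the higher mock library lay nearer to the lower treated library than to the other mock library. S100a8 rose by 1.93 ± 0.46 (edgeR adjusted p = 0.00381) and S100a9 by 1.86 ± 0.46 (edgeR adjusted p = 0.00499), and DESeq2 called neither (adjusted p = 0.0633 and 0.0711). With 1 library left out, the S100a8 rise was 1.30 without DPBS a, 2.98 without DPBS b and 1.30 without Aeg-S/L 2, and the S100a9 rise was 2.62 without DPBS b and 0.96 without Aeg-S/L 2.

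Csf3r, the receptor gene, rose from a high mock level in Lung1 to Lung3. It rose from a very low one in Lung4, in IL33KO2 and, with Aeg-S/L, in IL33KO1. In Lung1 it stood at 22.4, 26.6 and 20.4 CPM in DPBS and at 57.8, 79.3 and 53.7 CPM with ALT. In Lung2 it stood at 17 and 28.6 CPM in DPBS, 18.7 and 5.75 CPM with Aeg-S, 16.1 and 18.1 CPM with Aeg-L, and 122 and 98.7 CPM with Aeg-S/L. In Lung3 it stood at 16.2 and 21 CPM in DPBS, 98.8 and 46.8 CPM with WT ALT, 13.3 and 14 CPM with aegs KO ALT, and 10.4 and 18.7 CPM with aegl KO ALT. Only the ALT, Aeg-S/L and WT ALT libraries exceeded every DPBS library of their experiment.

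In these 3 experiments the rise of Csf3r was smaller than that of S100a8. It was 1.46 ± 0.15 with ALT (edgeR adjusted p = 3.17e-06), 2.28 ± 0.48 with Aeg-S/L (edgeR adjusted p = 0.0073) and 1.97 ± 0.38 with WT ALT (edgeR adjusted p = 0.0048). Without DPBS 1 of Lung2 the Aeg-S/L change was 1.94 (edgeR adjusted p = 0.0528), and without WT ALT 1 of Lung3 the WT ALT change was 1.32. With Aeg-S alone Csf3r changed by -0.90 ± 0.47 (edgeR adjusted p = 0.698). That change was -1.98 without Aeg-S 1, with the low library Aeg-S 2 alone in its group (edgeR adjusted p = 0.00233).

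In Lung4 and IL33KO2 the change of Csf3r was about as large as that of S100a8. In Lung4 it stood at 0.386 and 0.457 CPM in DPBS, 19.2 and 17.2 CPM with Lysenin, 24 and 21.3 CPM with PlyA2EryB, and 24 and 26.3 CPM with LSL. The treated level in Lung4 therefore lay near the mock level of Lung1. Csf3r rose there by 5.42 ± 0.15, 5.74 ± 0.15 and 5.90 ± 0.15 (edgeR adjusted p = 8.32e-16, 2.02e-16 and 1.05e-16).

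In IL33KO2 LSL stood out for Csf3r. It was at 0.945 and 0.617 CPM in DPBS, 16.5 and 12 CPM with Lysenin, 16.2 and 16.9 CPM with PlyA2EryB, and 64.7 and 65.2 CPM with LSL. Lysenin and PlyA2EryB overlapped, and LSL lay above both. The rises were 4.2 ± 0.22, 4.41 ± 0.21 and 6.38 ± 0.22 (edgeR adjusted p = 8.62e-06, 4.69e-06 and 1.73e-06).

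In the 2 remaining experiments Csf3r passed in 1 of 3 comparisons. In IL33KO1 it stood at 0.985 and 0.0887 CPM in DPBS, 2.95 and 1.58 CPM with ALT, and 28.2 and 27.5 CPM with Aeg-S/L. It rose by 5.73 ± 0.88 with Aeg-S/L (edgeR adjusted p = 0.0195), or by 8.23 without DPBS 1 and 4.84 without DPBS 2. It changed by 2.11 ± 0.82 with ALT (edgeR adjusted p = 0.188), or 4.59 without DPBS 1 (edgeR adjusted p = 0.0196). DPBS 2, the control then left, is the library with 4 counts. In Rag2gc it stood at 1.9 and 3.86 CPM in DPBS and at 3.04 and 9.91 CPM with Aeg-S/L, with the groups overlapping, and changed by 1.17 ± 0.48 (edgeR adjusted p = 0.0541). It passed without DPBS b, at 1.75 (edgeR adjusted p = 0.00342), and without Aeg-S/L 1, at 1.79 (edgeR adjusted p = 3.75e-07).

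**Figure D2:**
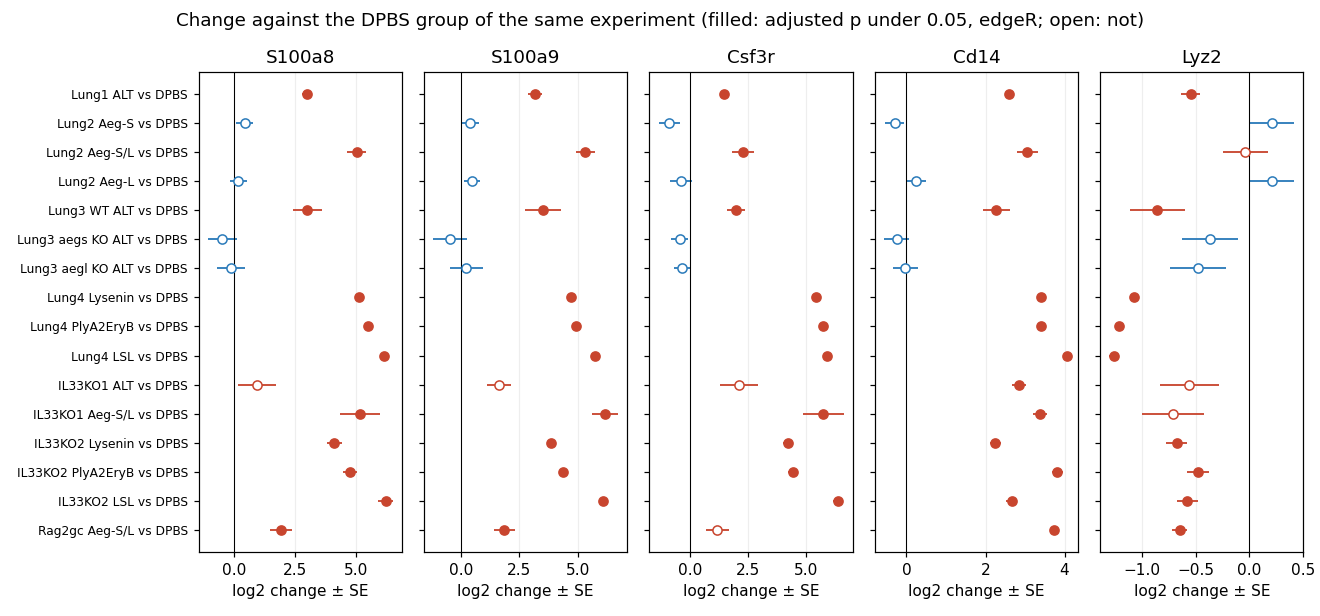
Log2 change against the DPBS group of the same experiment, with the standard error as a bar, for each of the 16 comparisons and 5 genes. Filled points passed at an adjusted p under 0.05 in edgeR and open points did not. The 4 blue comparisons, single Aeg proteins and knockout extracts, are open for every gene, and Cd14 is filled in the other 12, from 2.25 to 4.06.

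Of the 4 genes that rose, Cd14 had the narrowest range of changes. Over the 12 comparisons with extract or pore-forming proteins it rose by 2.25 to 4.06, with a median of 3.22. Its treated group means ran from 233 CPM (IL33KO2 Lysenin) to 941 CPM (Lung2 Aeg-S/L), 4.03-fold, where S100a8 spanned 106-fold.

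In the first 3 experiments the Cd14 libraries fell into a low and a high range. In Lung1 Cd14 stood at 117, 118 and 101 CPM in DPBS and at 638, 743 and 648 CPM with ALT. In Lung2 it stood at 103 and 122 CPM in DPBS, 118 and 64.8 CPM with Aeg-S, 126 and 141 CPM with Aeg-L, and 969 and 912 CPM with Aeg-S/L. In Lung3 it stood at 93.8 and 208 CPM in DPBS, 789 and 665 CPM with WT ALT, 114 and 140 CPM with aegs KO ALT, and 142 and 155 CPM with aegl KO ALT. The high range was reached with ALT, Aeg-S/L and WT ALT. The rises were 2.60 ± 0.09 with ALT (edgeR adjusted p = 7.25e-10), 3.06 ± 0.27 with Aeg-S/L (edgeR adjusted p = 0.000187) and 2.27 ± 0.34 with WT ALT (edgeR adjusted p = 0.00142), the last 2.94 without DPBS 2 of Lung3.

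Cd14 with the knockout extracts did not pass against DPBS, at -0.25 ± 0.32 with aegs KO ALT and -0.03 ± 0.32 with aegl KO ALT (edgeR adjusted p = 0.802 and 0.985). DPBS 2 of Lung3 was high in Cd14 and in Lyz2. Without DPBS 1, with DPBS 2 alone as control, Cd14 was lower with both knockout extracts, at -0.72 and -0.49 (edgeR adjusted p = 0.00313 and 0.0231), and Lyz2 at -0.74 and -0.85 (edgeR adjusted p = 0.000273 and 0.000125). With Aeg-S alone in Lung2, Cd14 changed by -0.30 ± 0.25 (edgeR adjusted p = 0.737), or -0.79 without Aeg-S 1 (edgeR adjusted p = 0.0231).

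Libraries of the pore-forming proteins were close within a group for Cd14. In Lung4 it stood at 57.2 and 52.7 CPM in DPBS, 587 and 579 CPM with Lysenin, 580 and 579 CPM with PlyA2EryB, and 893 and 945 CPM with LSL. In IL33KO2 it stood at 56.8 and 41.1 CPM in DPBS, 234 and 232 CPM with Lysenin, 699 and 676 CPM with PlyA2EryB, and 311 and 308 CPM with LSL. The order of the proteins thus differed between the 2 experiments, with LSL highest in Lung4 and PlyA2EryB highest in IL33KO2. The rises were 3.41 ± 0.05, 3.40 ± 0.05 and 4.06 ± 0.05 in Lung4, and 2.25 ± 0.13, 3.81 ± 0.14 and 2.66 ± 0.14 in IL33KO2 (edgeR adjusted p at most 1.72e-05).

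In the other knockout experiments Cd14 rose in each comparison. In IL33KO1 it stood at 42.1 and 39.1 CPM in DPBS, 328 and 257 CPM with ALT, and 435 and 413 CPM with Aeg-S/L. In Rag2gc it stood at 29.9 and 31.5 CPM in DPBS and at 415 and 408 CPM with Aeg-S/L. No treated library came near the mock ones. It rose by 2.85 ± 0.18 with ALT (edgeR adjusted p = 0.00401) and 3.38 ± 0.18 with Aeg-S/L in IL33KO1 (edgeR adjusted p = 0.0012), and by 3.74 ± 0.06 in Rag2gc (edgeR adjusted p = 9.65e-11).

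Lyz2, lysozyme, moved the other way from the other 4 tested members. In Lung1 it stood at 19348, 18598 and 18392 CPM in DPBS and at 12227, 12834 and 13306 CPM with ALT, and it fell by 0.55 ± 0.09 (edgeR adjusted p = 0.000164). In Lung4 it stood at 34847 and 33655 CPM in DPBS, 16569 and 15753 CPM with Lysenin, 14964 and 14435 CPM with PlyA2EryB, and 14212 and 14179 CPM with LSL. Treated and mock libraries did not overlap in either experiment. In Lung4 it fell by 1.08 ± 0.04, 1.22 ± 0.04 and 1.27 ± 0.04 (edgeR adjusted p = 2.95e-14, 4.49e-15 and 2.26e-15).

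Lyz2 also fell in IL33KO2 and Rag2gc. In IL33KO2 it stood at 24251 and 28621 CPM in DPBS, 16881 and 16147 CPM with Lysenin, 18946 and 18921 CPM with PlyA2EryB, and 18636 and 16652 CPM with LSL. It fell by 0.68 ± 0.10, 0.48 ± 0.10 and 0.58 ± 0.10 (edgeR adjusted p = 0.00115, 0.00413 and 0.00256). Fitted on the 2 compared groups only, the calls with PlyA2EryB and LSL were lost (edgeR adjusted p = 0.0603 and 0.0615). In Rag2gc it stood at 33679 and 34213 CPM in DPBS and at 21957 and 21351 CPM with Aeg-S/L, and fell by 0.65 ± 0.07 (edgeR adjusted p = 2.81e-05).

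In the remaining experiments the fall of Lyz2 was less certain. In Lung2 it stood at 18124 and 15159 CPM in DPBS and at 15381 and 17046 CPM with Aeg-S/L, and changed by -0.04 ± 0.21 (edgeR adjusted p = 0.906). In Lung3 it stood at 16797 and 30871 CPM in DPBS and at 13247 and 13056 CPM with WT ALT, and fell by 0.86 ± 0.26 (edgeR adjusted p = 0.0349). The mock libraries lay further from each other than DPBS 1 lay from either WT ALT library, so the size of this fall rests on the mock pair. It was -0.88 without WT ALT 1 and -0.86 without WT ALT 2, and the call was lost in both. Fitted on the 2 compared groups only, it was -0.85 and did not pass (edgeR adjusted p = 0.146). In IL33KO1 it stood at 23214 and 29685 CPM in DPBS, 18589 and 17413 CPM with ALT, and 16195 and 16062 CPM with Aeg-S/L. Its changes there were -0.56 ± 0.28 and -0.71 ± 0.29 (edgeR adjusted p = 0.29 and 0.138). Both treatments lay below the mock libraries without overlap, and DESeq2 called both (adjusted p = 0.0334 and 0.00308). Without DPBS 1 edgeR called both, at -0.76 and -0.90 (adjusted p = 0.0294 and 0.0204), and without DPBS 2 it called the Aeg-S/L change, at -0.51 (adjusted p = 0.0363).

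The pore-forming proteins were then compared with each other, at doses that are not given. In Lung4, LSL gave more S100a8, S100a9, Csf3r and Cd14 and less Lyz2 than Lysenin, 4 members higher and 1 lower where 13.8% of all genes were higher and 12.9% lower. S100a8 differed by 1.03 ± 0.09 (edgeR adjusted p = 1.33e-07), S100a9 by 1.02 ± 0.08, Csf3r by 0.47 ± 0.09, Cd14 by 0.66 ± 0.04 and Lyz2 by -0.19 ± 0.04. The Lyz2 difference did not pass without Lysenin 1 (edgeR adjusted p = 0.0567). Against PlyA2EryB, LSL gave 3 members higher and 0 lower (16% and 17.5% of all genes): S100a8 by 0.68 ± 0.09, S100a9 by 0.83 ± 0.08 and Cd14 by 0.67 ± 0.04.

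PlyA2EryB and Lysenin differed little in Lung4. With PlyA2EryB 2 members were higher and 1 lower, where 11.7% of all genes were higher and 11% lower. These were S100a8 by 0.35 ± 0.09, Csf3r by 0.32 ± 0.09 and Lyz2 by -0.14 ± 0.04 (edgeR adjusted p = 0.0109, 0.0113 and 0.0164). Each of the 3 calls was lost without some single library: S100a8 without Lysenin 1 or PlyA2EryB 2 (edgeR adjusted p = 0.153 and 0.151), Csf3r without Lysenin 2 or PlyA2EryB 1 (edgeR adjusted p = 0.19 and 0.147), and Lyz2 without Lysenin 1 or PlyA2EryB 2 (edgeR adjusted p = 0.258 and 0.136). Cd14 differed by -0.01 ± 0.04 (edgeR adjusted p = 0.925).

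In IL33KO2, where these comparisons were added after the values had been seen, the calprotectin genes and Cd14 ranked LSL and PlyA2EryB in opposite orders. Against PlyA2EryB, LSL gave 3 members higher and 1 lower, where 11.2% of all genes were higher and 11.9% lower. S100a8 was higher by 1.47 ± 0.22 (edgeR adjusted p = 0.00369), S100a9 by 1.72 ± 0.11 (edgeR adjusted p = 0.000126) and Csf3r by 1.97 ± 0.16 (edgeR adjusted p = 0.000386), while Cd14 was at -1.15 ± 0.13 (edgeR adjusted p = 0.00133). The S100a8 call was lost without PlyA2EryB b (edgeR adjusted p = 0.0563) or LSL 2 (edgeR adjusted p = 0.0583). In Lung4 the corresponding Cd14 difference, given above, had the other sign.

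Lysenin was the lowest of the 3 for Cd14 in IL33KO2. PlyA2EryB raised 2 members above it and lowered 0 (5.44% of all genes higher, 4.08% lower): Cd14 by 1.56 ± 0.13 (edgeR adjusted p = 0.00104) and S100a9 by 0.51 ± 0.11 (edgeR adjusted p = 0.0282). LSL raised 3 and lowered 0 (1.58% and 0.937%): S100a8 by 2.11 ± 0.23 (edgeR adjusted p = 0.00468), S100a9 by 2.23 ± 0.11 (edgeR adjusted p = 0.000305) and Csf3r by 2.19 ± 0.16 (edgeR adjusted p = 0.000955). Cd14 with LSL differed from Lysenin by 0.41 ± 0.13 (edgeR adjusted p = 0.161), and DESeq2 called it (adjusted p = 0.0322). Without any 1 of the 4 libraries compared, the S100a9 difference between PlyA2EryB and Lysenin did not pass (edgeR adjusted p from 0.0994 to 0.236), nor did the S100a8 difference between LSL and Lysenin (edgeR adjusted p from 0.0826 to 0.121).

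Ratios within a library compare members free of the scaling between libraries. S100a9 over S100a8, both in FPKM, lay between 1.72 and 3.55 in the 25 libraries given extract or pore-forming proteins, with a median of 2.61. The ratio spanned 2.06-fold while S100a8 itself ran from 0.653 to 142 CPM. It ran from 1.72 to 2.24 in these libraries of Lung1, Lung2 and Lung3. It ran from 2.56 to 3.26 in those of Lung4, IL33KO2 and Aeg-S/L of IL33KO1, without overlap with the former. The remaining treated libraries did not keep to either range, at 2.01 and 2.61 in Rag2gc and 2.09 and 3.55 with ALT in IL33KO1. In the 15 DPBS libraries, several with few counts, it ran from 0.92 to 5.72. Csf3r over S100a8 lay between 0.0993 and 0.465 in the 25 libraries.

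Cd14 over S100a8 did not keep one proportion. It ran from 2.6 (Aeg-S/L 2 of Lung2) to 158 (ALT 2 of IL33KO1) in the 25 libraries, 60.8-fold. In IL33KO1 it was 65.4 and 158 with ALT and 6.62 to 7.08 with Aeg-S/L. In IL33KO2 it was 3.47 to 3.92 with LSL and 21.3 to 24.2 with PlyA2EryB. Treated group means spanned 106-fold for S100a8 and 4.03-fold for Cd14 in CPM.

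**Figure D3:**
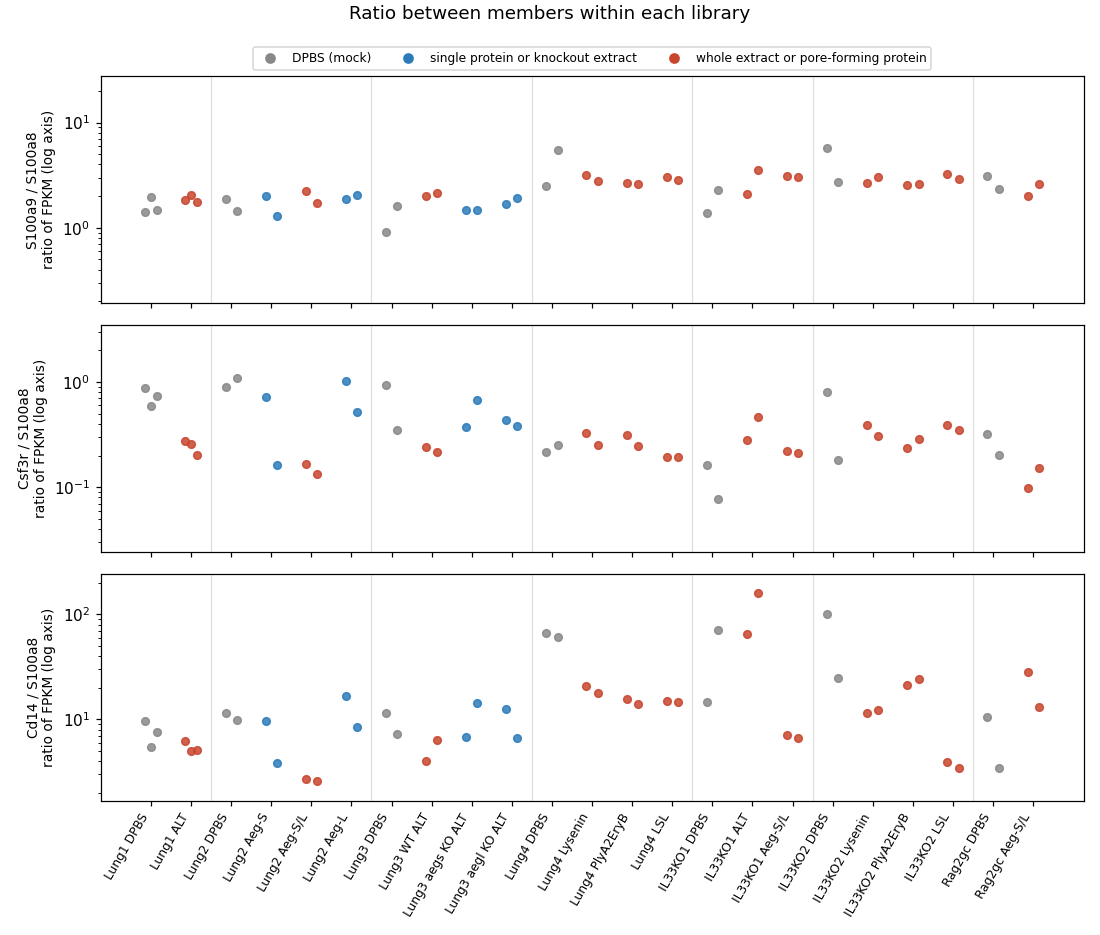
Ratio of FPKM between members within each library, on log axes of equal length, for S100a9 over S100a8, Csf3r over S100a8 and Cd14 over S100a8. The points for S100a9 over S100a8 with extract or pore-forming proteins lie between 1.72 and 3.55, while those for Cd14 over S100a8 run from 2.6 to 158.

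**Figure D4:**
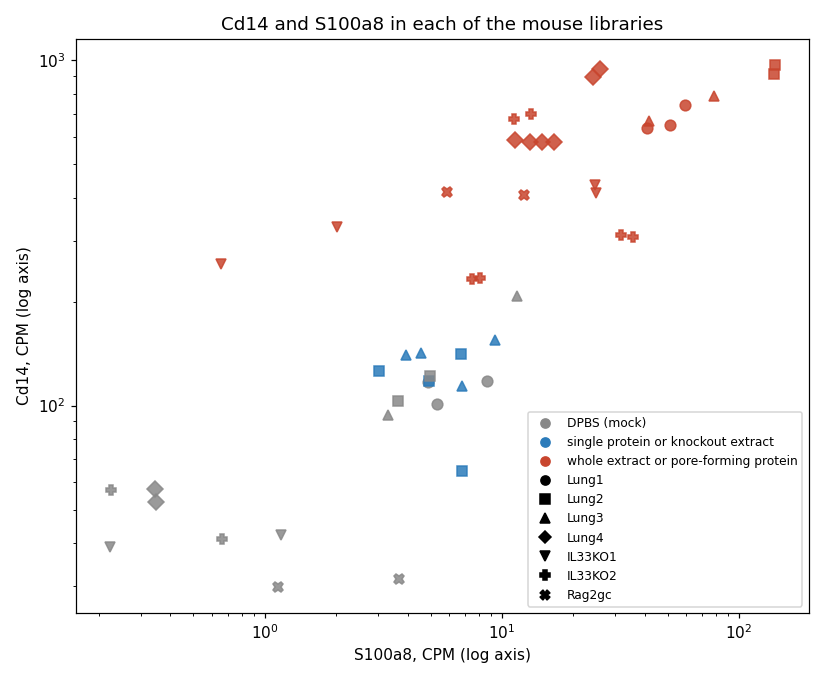
Cd14 against S100a8 in CPM, log axes, with 1 point per library, colour for the kind of treatment and shape for the experiment. The treated libraries lie at 232 CPM of Cd14 or more, whatever their S100a8, and the DPBS, single-protein and knockout-extract libraries at 208 CPM or less.

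The lowest treated Cd14 library (232 CPM, IL33KO2 Lysenin) stood above the highest mock library (208 CPM, DPBS 2 of Lung3), across experiments. For S100a8 the ranges overlapped: mock libraries reached 11.6 CPM, and treated ones began at 0.653 CPM. Lyz2 over Cd14 in FPKM separated the 2 kinds of library as well, from 163 to 1483 in DPBS and from 19.8 to 95 with extract or pore-forming proteins.

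The change of each member under a matched stimulus was set against that in another experiment, in a joint fit of both, for 6 pairs of comparisons. With Lysenin, the change in Lung4 exceeded that in IL33KO2 for Csf3r and Cd14 and lay below it for Lyz2, 2 members higher and 1 lower where 6.73% of all genes were higher and 7.8% lower. With PlyA2EryB it was 1 higher (Csf3r) and 1 lower (Lyz2), against 6.83% and 7.86% of all genes. With LSL it was 1 higher (Cd14) and 1 lower (Lyz2), against 11.1% and 11.5%. For S100a8 the differences were 1.01 ± 0.42, 0.74 ± 0.42 and -0.05 ± 0.44 in the same order, and did not pass (edgeR adjusted p = 0.128, 0.262 and 0.957). DESeq2 called the Lysenin differences of S100a8 and S100a9, at 1.04 and 0.89 (adjusted p = 0.0456 and 0.00523), and the PlyA2EryB difference of Cd14, at -0.41 (adjusted p = 0.0352). Without DPBS 1 of IL33KO2 edgeR called these 3 too, and S100a8 with PlyA2EryB. Without DPBS 2 of IL33KO2 it called Cd14 with PlyA2EryB, at -0.22 (adjusted p = 0.0111). Without DPBS 2 of Lung4 it called S100a9 with Lysenin and PlyA2EryB, and without DPBS 1 of Lung4 S100a9 with LSL, at -0.81 (adjusted p = 0.0283).

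For Aeg-S/L, Lung2 was set against both knockout experiments. Against IL33KO1, 0 members were higher and 1, Csf3r, was lower, where 3.57% of all genes were higher and 5.05% lower. Against Rag2gc, S100a8 and S100a9 had changed more in Lung2, 2 higher and 0 lower where 4.46% were higher and 3.12% lower. Cd14 differed by -0.38 ± 0.34 from IL33KO1 and by -0.61 ± 0.29 from Rag2gc (edgeR adjusted p = 0.508 and 0.255). DESeq2 called Lyz2 in both, at 0.68 and 0.57 (adjusted p = 0.0229 and 0.0237).

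For ALT, Lung1 was set against IL33KO1, and 0 members passed with edgeR, where 5.1% of all genes were higher and 8.38% lower. By unadjusted p under 0.05 the count was 2, and DESeq2 called 0. S100a8 differed by 2.01 ± 0.75 (edgeR adjusted p = 0.0977), S100a9 by 1.51 ± 0.69 (edgeR adjusted p = 0.172) and Cd14 by -0.28 ± 0.18 (edgeR adjusted p = 0.355). S100a8 passed without ALT 1 of IL33KO1, at 3.01 (edgeR adjusted p = 0.0306), and without its DPBS 2, at 2.80 (edgeR adjusted p = 0.00757). S100a9 passed without DPBS 2 of Lung1 (edgeR adjusted p = 0.0488) or DPBS 2 of IL33KO1 (edgeR adjusted p = 0.0475), and Csf3r, at -3.19, without DPBS 1 of IL33KO1 (edgeR adjusted p = 0.0107).

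Among 16078 genes tested in all 7 experiments, the gene most like S100a8 was S100a9. The likeness was Pearson's r of log2(CPM + 1) less the mean of the DPBS libraries of the same experiment, over 48 libraries, and was 0.993 for S100a9. Next came ENSMUSG00000027398.13 at 0.975 and ENSMUSG00000026180.8 at 0.968, which the sources used here do not name. For Cd14 the 3 nearest genes reached 0.977 to 0.986 and for Lyz2 0.922 to 0.927, and none of these was a member. Libraries of an experiment share their mock group and most share a treatment with another library, so these values describe the libraries and were not tested.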

How the data were processed

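The data were RNA sequencing of isolated mouse lung epithelial cells. The authors deposited whole-number counts per gene, 1 table for each of 7 mouse experiments (48 libraries). Per the submitters' processing notes, HISAT2 2.2.1, SAMtools, featureCounts 2.0.2, DESeq2 1.36.0 and R 4.2.2 were used, with the builds mm10 and hg19. Per the labels' protocols, the kit was NEBNext Ultra RNA, which does not mark strand. How counting treated strand is not stated in these sources. Exon lengths come from the deposited tables and served for FPKM only. Human tables were not used here. Of the mouse count columns, 0 were left unused. In 3 groups both columns carried the same name, and these 6 libraries are lettered a and b. In Lung4, 2 lines named no gene and were left out (3.02e-06% of counts).

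Each experiment was fitted alone with edgeR 4.0.16 in R 4.3.3: filterByExpr over groups, TMM scaling, 1 coefficient per group, the quasi-likelihood F test and Benjamini-Hochberg adjustment over all genes tested, with calls at 0.05. SEs were back-calculated from F (size of the log2 change over its root). Joint fits gave the differences between experiments. The scripts were tested on simulated data, with 1 comparison per experiment. Of simulated log2 changes of 1, 19% were recovered in IL33KO1, 28% in Lung2 and 29% in Lung3, against 77% to 96% in the other experiments. For log2 changes of 2 these were 72%, 95% and 88%, against 97% to 100%. A change that did not pass in IL33KO1, Lung2 or Lung3 is therefore not shown to be absent. Between libraries of a group, chi-square per degree of freedom was at least 2.81 over 27 pairs, so no pair held identical counts. It was 2.81 to 3.63 in the treated pairs of Lung4 and IL33KO2, against 9.39 and 72 in their DPBS pairs. In IL33KO1 it was 4.27 with Aeg-S/L and 143 in DPBS. This check cannot tell whether a close pair came from separate animals or from repeated sequencing of 1 library. Most counts above 0 of ENSMUSG00000052435 were even, so counts may not be independent, and the value to be met by such repeats is not known. Small SEs and p-values in these experiments may therefore not measure the spread between animals. Deviations of same-numbered libraries correlated at -0.24 to 0.087, so numbers did not pair them. Alternatives were DESeq2 1.42.0, no low-count filter, DESeq2 size factors, the 2 compared groups only, the replicate number as a block, and each library left out in turn. A library left alone in its group was taken to vary like the other groups.

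The members and gene lists were chosen with earlier results of these data known. Named genes were to be the 6 members, up to 3 called genes of each list, and the 3 genes most like S100a8, Lyz2 and Cd14. The 14 lists hold 124 symbols, of which 0 matched, since the reference used here names 0 of the 55401 mouse IDs. For this reason the lists and markers of cell types, and Il33, Rag2 and Il2rg as the genes targeted, were not analysed here. Comparisons within IL33KO1 of Aeg-S/L with ALT, and within IL33KO2 of the proteins with each other, were added after the values were seen.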

Additional observations from a re-analysis of the deposited data

Results flagged for a closer look

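For 10 gene and stimulus pairs, changes against DPBS differed between 2 experiments given the same stimulus, by a test of the difference itself in a joint edgeR fit (30 such tests, quasi-likelihood, adjusted over all genes of each comparison). Between Lung4 and IL33KO2, Csf3r had changed more in Lung4 with Lysenin, by 1.22 ± 0.34 (adjusted p = 0.0301), and with PlyA2EryB, by 1.34 ± 0.34 (adjusted p = 0.0189). Cd14 had changed more in Lung4 with Lysenin, by 1.14 ± 0.14 (adjusted p = 0.000242), and with LSL, by 1.41 ± 0.14 (adjusted p = 1.18e-05). Lyz2 had fallen further in Lung4 with all 3 proteins. The difference was -0.41 ± 0.11 with Lysenin (adjusted p = 0.0253), -0.73 ± 0.11 with PlyA2EryB (adjusted p = 0.0011) and -0.68 ± 0.11 with LSL (adjusted p = 0.000673). The mock means differed too, at 34251 CPM of Lyz2 in Lung4 and 26436 CPM in IL33KO2. With Lysenin, Lyz2 averaged 16161 and 16514 CPM in the same order, with PlyA2EryB 14699 and 18934 CPM, and with LSL 14195 and 17644 CPM. Csf3r averaged 0.421 and 0.781 CPM in mock, 18.2 and 14.2 CPM with Lysenin, and 22.7 and 16.6 CPM with PlyA2EryB.

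With Aeg-S/L, Csf3r had changed less on the log2 scale in Lung2 than in IL33KO1, at -3.53 ± 0.94 (adjusted p = 0.0418). Mock levels were 22.8 and 0.537 CPM, the latter from 38 and 4 counts. The treated level was nevertheless higher in Lung2, at 111 CPM against 27.8 CPM in IL33KO1. S100a8 and S100a9 had changed more in Lung2 than in Rag2gc, by 3.18 ± 0.73 (adjusted p = 0.0278) and 3.54 ± 0.75 (adjusted p = 0.0192). In each of these, genotype and experiment cannot be told apart.

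Of the 10 differences, 6 lost the call without some single library. Csf3r with Lysenin lost it without DPBS 1 or 2 or Lysenin 1 of Lung4, or DPBS 1 of IL33KO2 (adjusted p from 0.0645 to 0.154). Csf3r with PlyA2EryB lost it without DPBS 1 or PlyA2EryB 1 of Lung4, or DPBS 1 of IL33KO2 (adjusted p from 0.0501 to 0.106). Lyz2 with Lysenin lost it without DPBS 1, Lysenin 1 or Lysenin 2 of Lung4, or Lysenin a of IL33KO2 (adjusted p from 0.0548 to 0.095). Csf3r with Aeg-S/L lost it without any 1 DPBS or Aeg-S/L library of Lung2, or either Aeg-S/L library of IL33KO1 (adjusted p from 0.061 to 0.13), and was -6.05 without DPBS 1 and -2.63 without DPBS 2 of IL33KO1. S100a8 and S100a9 with Aeg-S/L lost it without any 1 compared library of Lung2, DPBS b of Rag2gc or Aeg-S/L 1 of Rag2gc (adjusted p from 0.0722 to 0.146 and from 0.051 to 0.0843). Without DPBS b of Rag2gc they were 2.12 and 2.76, without its Aeg-S/L 2 they were 3.81 and 4.44, and S100a8 was 3.78 without its DPBS a. The other 4 (Cd14 with Lysenin and LSL, Lyz2 with PlyA2EryB and LSL) kept the call without each library in turn.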

How the results depend on the processing

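Counts are of members called, over the comparisons of an experiment. With DESeq2, the count was 8 in place of 5 in IL33KO1 against DPBS, 2 in place of 4 in Rag2gc, and 3 in place of 1 for Aeg-S/L against ALT in IL33KO1. The last was also 3 without the low-count filter and 3 in the 2 compared groups only. Without the filter, differences between experiments numbered 19 in place of 10, in a setting whose p-values may understate the spread between libraries. In the 2 compared groups only, the proteins against each other in IL33KO2 numbered 14 in place of 9. The cause was not tested. Leaving out 1 library in turn gave 4 to 9 in Lung3 (9 without DPBS 1, main 5), 5 to 9 in IL33KO1 (9 without DPBS 1, main 5) and 0 to 0 for Aeg-S/L against ALT. It gave 3 to 6 in Lung2 (main 4), 4 to 5 in Rag2gc (main 4), 7 to 8 for the proteins against each other in IL33KO2 (main 9), 8 to 11 for those in Lung4 (main 11), 6 to 8 for the knockout extracts against WT ALT (main 8) and 7 to 12 between experiments (main 10). With the replicate number as a block, 100 of 100 single tests kept their side of the threshold, and the counts stayed at 5 in Lung1, 4 in Lung2, 5 in Lung3, 15 in Lung4 and 5 in IL33KO1. No paired analysis was possible in IL33KO2 and Rag2gc because some columns carry no numbers. With DESeq2 size factors 164 of 165 single tests kept their side, with DESeq2 151, and without the filter 145. Leaving out libraries, 717 of 800 did. No called value changed direction under the settings named here. Counts over all genes moved by over 1.5 times in 127 of 304 alternatives. Depth limits Csf3r and S100a8 in the mock libraries of Lung4, IL33KO1 and IL33KO2, which hold 4 to 42 counts of Csf3r and 10 to 45 of S100a8.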
